A study of Mus musculus with 6 samples.

Results

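Receptors by which splenic macrophages bind and clear particles, and the secreted protein CD5L, were examined in RNA of mouse splenic dendritic cells. Their genes were Marco, Cd209b, Siglec1, Cd5l, Timd4, Msr1, Mrc1 and Stab1. The genes were taken by symbol from the deposited count files, where all 8 were found among 23420 genes, and all 8 passed the filter on low counts. The 6 libraries came from cells freshly isolated from spleens of C57BL/6 mice, 3 with the genotype TBK1-DKO and 3 wild type (WT), without a treatment given in the labels. The sources used here do not state the alleles behind TBK1-DKO, the cells in which a deletion occurs, what the letters DKO stand for, how the cells were purified or whether animals were pooled. The age is given as 10 weeks in the sample characteristics and as 8 weeks in the protocol. TBK1 is a kinase of innate immunity that activates factors which switch on interferon genes.

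The marginal zone of the mouse spleen is the border at which blood enters the white pulp, and it holds macrophages that take up blood-borne particles. Marginal zone macrophages carry the scavenger receptor MARCO and the lectin SIGN-R1, encoded by Cd209b, and metallophilic macrophages on the inner side of the zone carry the sialic acid receptor CD169, encoded by Siglec1. The other genes are expressed more widely: Cd5l, Timd4 and Mrc1 also by macrophages of the red pulp, where aged red cells are cleared, and Mrc1 and Stab1 also by endothelial cells that line sinuses. TIM-4, encoded by Timd4, binds phosphatidylserine on dying cells, and MSR1, MRC1 and stabilin-1 bind modified proteins, lipids and sugars and carry them into the cell. CD5L is a secreted protein of macrophages.

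Of the genes that were lower in TBK1-DKO, 4 are shown with the bases directly before their transcription start, so that genes that fell together can be compared. The sequences are from RefSeq (GRCm38.p6), each 250 bases long, written 5′ to 3′ on the strand of the gene; capitals mark matches to the motifs named after them. The Marco stretch lies at chr1:120505025-120505274 (minus strand), that of Cd209b at chr8:3926842-3927091 (minus strand), that of Cd5l at chr3:87357631-87357880 (plus strand) and that of Timd4 at chr11:46810549-46810798 (plus strand).
Marco: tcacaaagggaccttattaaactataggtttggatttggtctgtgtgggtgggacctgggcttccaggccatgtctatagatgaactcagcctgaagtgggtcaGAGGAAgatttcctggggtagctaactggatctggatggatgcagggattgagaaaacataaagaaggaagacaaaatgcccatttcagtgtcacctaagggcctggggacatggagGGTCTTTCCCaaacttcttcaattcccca
Cd209b: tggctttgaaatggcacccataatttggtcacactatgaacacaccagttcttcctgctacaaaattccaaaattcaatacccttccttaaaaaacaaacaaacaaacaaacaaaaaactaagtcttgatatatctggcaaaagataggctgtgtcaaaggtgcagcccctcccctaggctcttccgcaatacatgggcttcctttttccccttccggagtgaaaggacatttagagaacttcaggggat
Cd5l: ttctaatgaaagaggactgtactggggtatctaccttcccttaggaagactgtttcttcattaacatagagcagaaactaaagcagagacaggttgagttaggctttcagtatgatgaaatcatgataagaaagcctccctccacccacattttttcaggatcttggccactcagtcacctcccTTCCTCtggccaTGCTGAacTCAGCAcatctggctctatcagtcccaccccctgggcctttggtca
Timd4: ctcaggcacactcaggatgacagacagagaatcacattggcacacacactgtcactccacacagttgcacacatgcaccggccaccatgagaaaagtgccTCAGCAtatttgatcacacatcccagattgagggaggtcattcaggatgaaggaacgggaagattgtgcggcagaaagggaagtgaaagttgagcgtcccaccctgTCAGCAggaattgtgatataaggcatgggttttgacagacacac

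The motifs were searched on both strands in these 250 bases, and matches of different motifs could overlap. They were a core of PU.1 sites (GAGGAA), a factor that macrophages need; a core of interferon response elements (GAAA, any 2 bases, GAAA); the AP-1 site (TGANTCA); a MAF core (TGCTGA); a core of NF-kappaB sites (GGGA, any 4 bases, CC); and the LXR element (AGGTCA, any 4 bases, AGGTCA). Over 32851 promoters of the same length, 23.3% held the PU.1 core, 2.98% the interferon core, 6.75% the AP-1 site, 16.1% the MAF core, 17.6% the NF-kappaB core and 0.0152% the LXR element. Marco held a PU.1 core from 146 to 141 bases before the start and an NF-kappaB core from 29 to 20 bases before it. Cd5l held a PU.1 core and a pair of MAF cores within the last 66 bases before the start. Timd4 held MAF cores from 150 to 145 and from 44 to 39 bases before the start. No match of the 6 motifs lay in the Cd209b stretch. The RefSeq table gave promoters for 6 of the 8 genes, all but Siglec1 and Msr1; those of Mrc1 and Stab1 were searched and are not printed. Mrc1, which also fell, held 3 PU.1 cores and an NF-kappaB core. Stab1, which did not fall, held a PU.1 core from 30 to 25 bases and a MAF core from 43 to 38 bases before the start, so these matches were not limited to genes that fell. The interferon core, the AP-1 site and the LXR element matched none of the 6. A match is a description of letters and not of binding.

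The gene reads per library numbered 45018389 to 47349648 in TBK1-DKO and 31077585 to 36145508 in WT. Library TBK1-DKO 2 stood apart from the others of its group (chi-square of 36.1 and 36.2 per degree of freedom over genes, against 2.40 between TBK1-DKO 1 and 3), and WT 1 from WT 2 and 3 (12.6 and 14.1 against 2.58). Separate animals are not stated, so the p-values below rest on a spread between libraries that may be only technical. Levels are given as CPM, read counts scaled to the same library size. The level of Tbk1 was 82.3 ± 2.69 CPM (SD, n = 3) in TBK1-DKO against 85.0 ± 5.08 CPM in WT (log2 fold change -0.05; edgeR, adjusted p = 0.63), so counts over the whole gene did not check the label. Dendritic cell core genes, among them Flt3 (149 ± 3.25 against 148 ± 2.0 CPM) and Itgax (343 ± 10.2 against 394 ± 14.6 CPM), were present in both groups. In that list of 10 genes 2 rose and 1 fell; 1 was called without TBK1-DKO 1, 5 were called without TBK1-DKO 2, and 8 without both TBK1-DKO 2 and WT 1. Macrophage genes were thus measured within libraries that also held the genes of dendritic cells. The number called over all genes also moved with the libraries kept. It was 3402 with all libraries, 2493, 4352 and 2548 without TBK1-DKO 1, 2 and 3, and 3026, 2308 and 2476 without WT 1, 2 and 3. Without both TBK1-DKO 2 and WT 1 it was 6897. Counts in lists with libraries left out are to be read beside these numbers.

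Levels were compared between genes per length, as CPM per kilobase of merged exons (RPKM), in WT. Cd5l was highest at 229 ± 7.89 RPKM, followed by Marco at 99.1 ± 10.1 RPKM and Mrc1 at 86.8 ± 1.43 RPKM, a pair whose libraries overlapped. Timd4 followed at 33.1 ± 1.07 RPKM and Siglec1 at 13.6 ± 1.01 RPKM. Cd209b stood at 4.37 ± 0.38 RPKM, Msr1 at 1.67 ± 0.07 RPKM and Stab1 at 0.62 ± 0.04 RPKM. Marco and Cd209b, which mark the same macrophages, were thus far apart in level. In TBK1-DKO, Marco (55.5 ± 5.45 RPKM) and Mrc1 (55.0 ± 3.84 RPKM) did not differ beyond their spread, and Msr1 (3.19 ± 0.10 RPKM) stood above Cd209b (1.23 ± 0.11 RPKM), the reverse of their order in WT.

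TBK1-DKO was compared with WT to ask which of these genes differ with the genotype. Marco, Cd209b, Cd5l, Timd4 and Mrc1 fell, Msr1 rose, and Siglec1 and Stab1 were not called (edgeR quasi-likelihood test, adjusted p under 0.05 over all 14388 genes tested). Thus 5 of 8 fell, where 9.90% of all genes tested did, and 1 rose, where 13.7% did; 23.6% of all genes were called in either direction. The groups did not overlap in 7 of the 8 genes, as in 41.1% of all genes tested: WT was higher in 5 (19.5% of all genes) and TBK1-DKO in 2 (21.5% of all genes). The median log2 fold change of the 8 genes was -0.61, that of all genes tested 0.0015. The 8 genes and all lists below were chosen with earlier results of these data known. Their counts beside the shares over all genes are therefore a description and no test of a set. The count of each list below is likewise to be read beside these shares. In bulk RNA such as this, fewer cells that carry a gene and less RNA of that gene per cell cannot be told apart. Which cells the reads of the 8 genes came from was not tested.

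**Figure D1:**
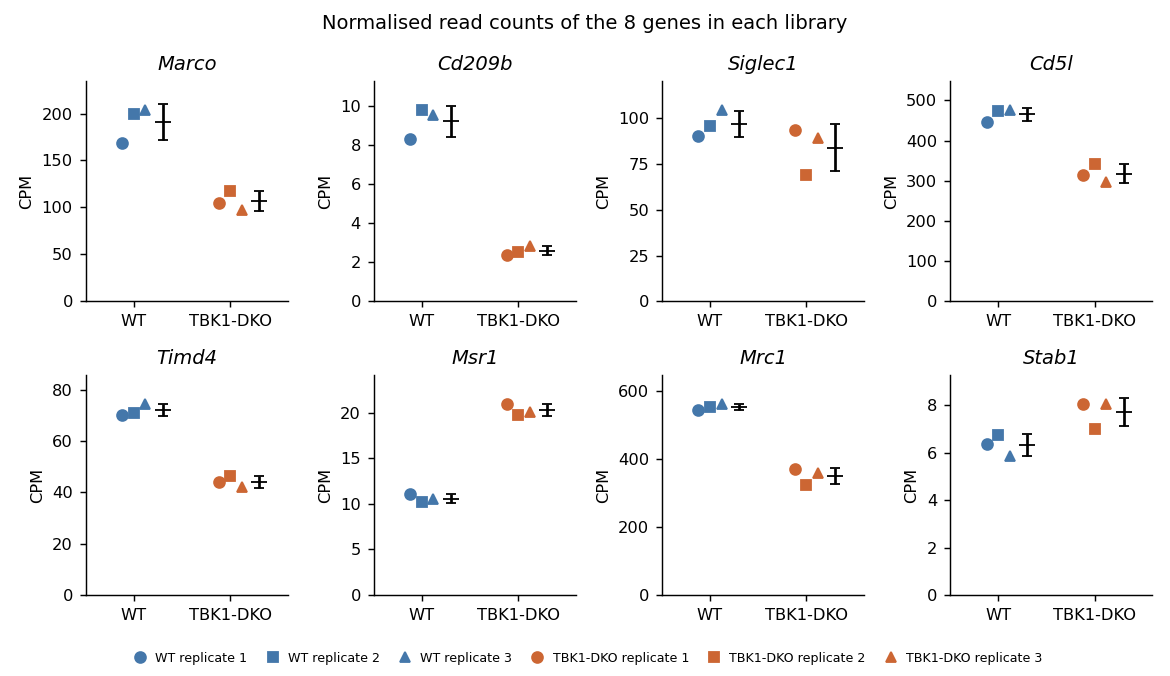
Normalised read counts (CPM, vertical axes from 0) of the 8 genes in the 3 WT and 3 TBK1-DKO libraries. Each symbol is a library and bars are mean ± SD; all TBK1-DKO libraries lie below all WT libraries for Marco, Cd209b, Cd5l, Timd4 and Mrc1 and above them for Msr1 and Stab1, and the groups overlap for Siglec1.

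Among markers of marginal zone macrophages, Cd209b (ENSMUSG00000065987.12, GRCm38 chromosome 8, 3917655 to 3926844, minus strand, protein coding) changed most. It encodes the lectin SIGN-R1, which binds microbial polysaccharides. For Cd209b, TBK1-DKO libraries 1, 2 and 3 held 2.39, 2.55 and 2.84 CPM, and WT libraries 1, 2 and 3 held 8.33, 9.83 and 9.58 CPM. Every TBK1-DKO library was below every WT library, with 113 to 128 reads in TBK1-DKO and 262 to 354 in WT. The log2 fold change was -1.84 (SE 0.11, 95% interval -2.09 to -1.58; edgeR, adjusted p = 3.9e-06), a level 3.57 times as high in WT. Cd209b belongs to a family of related genes, and reads that align to several places are in no gene count, so its level is uncertain to the extent that such reads were left out.

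Marco (ENSMUSG00000026390.7, chromosome 1, 120474538 to 120505024, minus strand, protein coding) encodes the collagenous scavenger receptor of marginal zone macrophages. For Marco, TBK1-DKO libraries 1, 2 and 3 held 105, 118 and 97.1 CPM, and WT libraries 1, 2 and 3 held 169, 199.96 and 204 CPM. WT 1 was the lowest WT library and still lay above the highest TBK1-DKO library. On the log2 scale the change of Marco was -0.84 (SE 0.09, 95% interval -1.04 to -0.64; edgeR, adjusted p = 0.00011), a level 1.79 times as high in WT.

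Siglec1 (ENSMUSG00000027322.11, chromosome 2, 131069220 to 131086765, minus strand, protein coding), the metallophilic marker CD169, was not called. TBK1-DKO libraries 1, 2 and 3 held 93.5, 69.1 and 89.3 CPM of Siglec1, and WT libraries 1, 2 and 3 held 90.3, 95.6 and 105 CPM. TBK1-DKO 2 was low, and TBK1-DKO 1 lay between WT 1 and 2. The log2 fold change was -0.21 (SE 0.11, 95% interval -0.44 to 0.03; edgeR, adjusted p = 0.2), an interval that includes a level 0.736 times that of WT. Without TBK1-DKO 2 the log2 fold change was -0.11 (edgeR, adjusted p = 0.235). Without both TBK1-DKO 2 and WT 1 it was -0.14 and passed the test (edgeR, adjusted p = 0.00091), and with trends of length and GC content taken out of each library it was -0.27 and also passed (edgeR, adjusted p = 0.016). These fits called far more genes in general, 6897 of 14456 and 5049 of 14263 tested, against 3402 of 14388 in the main fit. Whether the calls of Siglec1 in them go beyond this wider rise in calls was not tested.

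With each library left out in turn, Siglec1 was not called. Over 14263 genes, the deviation of TBK1-DKO 2 from the other libraries of its group had a Spearman rho of -0.52 with merged exon length, against 0.41 for TBK1-DKO 1 and 0.43 for TBK1-DKO 3. This is a description across genes of single libraries. Siglec1, Msr1, Mrc1 and Stab1, with merged exons of 6.34 to 10.3 kb, were each lowest in TBK1-DKO 2 within the group. Marco, Cd5l and Timd4, with 1.93 to 2.17 kb, were each highest there, while Cd209b (2.12 kb) lay between the other libraries. The deviation of TBK1-DKO 2 on the log2 scale was -0.40 for Siglec1, -0.19 for Stab1, -0.17 for Mrc1 and 0.22 for Marco.

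Among the soluble and phosphatidylserine-binding members, Timd4 and Cd5l fell. Timd4 (ENSMUSG00000055546.6, chromosome 11, 46810800 to 46844332, plus strand, protein coding) encodes TIM-4, the receptor for dying cells. For Timd4, TBK1-DKO libraries 1, 2 and 3 held 43.9, 46.5 and 41.9 CPM, and WT libraries 1, 2 and 3 held 70.2, 70.9 and 74.6 CPM. Libraries of a group lay close together, within a factor of 1.11 in TBK1-DKO and 1.06 in WT, and the groups were well apart. The change of Timd4 was -0.70 on the log2 scale (SE 0.06, 95% interval -0.84 to -0.57; edgeR, adjusted p = 2.7e-05).

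Cd5l (ENSMUSG00000015854.7, chromosome 3, 87357881 to 87371073, plus strand, protein coding) is an LXR target that encodes a secreted protein of the scavenger receptor family. For Cd5l, TBK1-DKO libraries 1, 2 and 3 held 314, 343 and 296 CPM, and WT libraries 1, 2 and 3 held 447, 473 and 477 CPM. All TBK1-DKO libraries were lower. On the log2 scale Cd5l changed by -0.55 (SE 0.07, 95% interval -0.70 to -0.40; edgeR, adjusted p = 0.00025).

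The broad endocytic receptors moved apart. Mrc1 (ENSMUSG00000026712.3, chromosome 2, 14229392 to 14332057, plus strand, protein coding) encodes the mannose receptor CD206. For Mrc1, TBK1-DKO libraries 1, 2 and 3 held 369, 323 and 359 CPM, and WT libraries 1, 2 and 3 held 545, 552 and 563 CPM. The WT libraries were within a factor of 1.03 of each other and all above TBK1-DKO. Its log2 fold change was -0.66 (SE 0.07, 95% interval -0.81 to -0.51; edgeR, adjusted p = 6.8e-05). Mir511, a microRNA gene within Mrc1, had 0 reads in all 6 libraries.

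Msr1 (ENSMUSG00000025044.16, chromosome 8, 39581685 to 39642673, minus strand, protein coding), the class A scavenger receptor of macrophages, went the other way. TBK1-DKO libraries 1, 2 and 3 held 20.99, 19.7 and 20.02 CPM of Msr1, and WT libraries 1, 2 and 3 held 11.1, 10.2 and 10.5 CPM. Every TBK1-DKO library was well above every WT library, with 899 to 992 reads against 348 to 366. Msr1 rose by 0.94 on the log2 scale (SE 0.07, 95% interval 0.78 to 1.10; edgeR, adjusted p = 1.5e-05), a level 1.92 times as high in TBK1-DKO. MARCO and MSR1 belong to the same class of collagenous scavenger receptors, and their genes changed in opposite directions.

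Stab1 (ENSMUSG00000042286.13, chromosome 14, 31139013 to 31168641, minus strand, protein coding) encodes stabilin-1. For Stab1, TBK1-DKO libraries 1, 2 and 3 held 8.08, 7.02 and 8.06 CPM, and WT libraries 1, 2 and 3 held 6.36, 6.77 and 5.86 CPM. The groups did not overlap, with TBK1-DKO 2 close to WT 2. The log2 fold change was 0.29 (SE 0.10, 95% interval 0.06 to 0.51) and missed the threshold (edgeR, adjusted p = 0.065). Without TBK1-DKO 2 it was 0.33 and passed (edgeR, adjusted p = 0.026), in a fit that called 4352 of 14413 genes, against 3402 of 14388 in the main fit. Nt5dc2 overlaps Stab1 on the opposite strand, and reads of the overlap cannot be told apart where counting ignores strand. Nt5dc2 had a level of 10.9 ± 0.63 CPM in TBK1-DKO against 9.84 ± 0.68 CPM in WT and was not called (edgeR, adjusted p = 0.27).

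**Figure D2:**
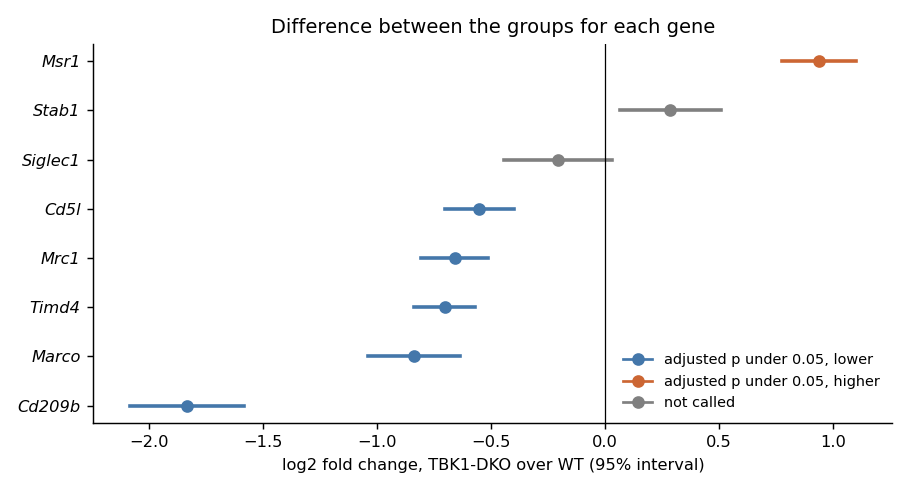
Log2 fold change of TBK1-DKO over WT for each gene (horizontal axis), with lines for the 95% interval of edgeR's quasi-likelihood fit over 3 against 3 libraries and colour for the call. Cd209b lies lowest at -1.84 and Msr1 highest at 0.94; the intervals of Cd5l, Mrc1, Timd4 and Marco overlap each other, and only that of Siglec1 includes 0.

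Differences among the 8 genes were compared as the log2 ratio of their CPM in each library, over 28 pairs, by exact permutation tests whose smallest possible two-sided p with 3 against 3 libraries is 0.1 (0.12 after Benjamini-Hochberg adjustment), so no pair could pass 0.05. Pairs that share a gene repeat that gene's change, and a few are given here. Marco over Cd209b was 44.0, 46.3 and 34.2 in the TBK1-DKO libraries against 20.2, 20.3 and 21.3 in the WT libraries (log2 difference 0.997, exact p = 0.1). Marco over Siglec1 was 1.13, 1.71 and 1.09 against 1.87, 2.09 and 1.95 (log2 difference -0.62, exact p = 0.1). Marco over Msr1 was 5.01, 5.98 and 4.85 against 15.2, 19.7 and 19.4 (log2 difference -1.77, exact p = 0.1). Each ratio is given for libraries 1, 2 and 3 in turn, and in all 3 the groups were apart. The ratios overlapped between groups for Marco over Timd4, Marco over Mrc1, Timd4 over Mrc1, Cd5l over Mrc1 and Siglec1 over Cd5l.

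Genes of red pulp macrophages, which recycle iron from red cells, fell alongside: of 13 tested, 12 fell and 1, Blvrb (0.10, named after its value was seen), was not called. Cd163, the haemoglobin scavenger receptor, fell from 253 ± 2.44 to 120 ± 11.7 CPM (log2 fold change -1.08), Vcam1, an adhesion molecule, by 0.62, Slc40a1, the iron exporter ferroportin, by 0.60 and Itgad, an integrin chain, by 0.70 on the log2 scale. The list's median was -0.60, and its summed level was 5317 to 5616 CPM in TBK1-DKO and 8060 to 8489 CPM in WT, with no gene at 0. Of 15 genes shared by tissue macrophages, 11 fell and 1 rose, and 3 were not called. Those that fell included Emr1, which encodes F4/80, from 512 ± 3.21 to 317 ± 9.23 CPM, Csf1r, the receptor for the macrophage growth factor, by 0.53, and Maf, a transcription factor of macrophages, by 0.43. Itgam, an integrin chain also carried by neutrophils and named after its value was seen, rose by 0.37. The tissue macrophage sum was 5296 to 5783 CPM in TBK1-DKO and 6357 to 6915 CPM in WT, with no gene at 0. The count of tissue macrophage genes that fell was 6 without TBK1-DKO 1, 5 without TBK1-DKO 3 and 6 without WT 2 or WT 3, in place of 11. The red pulp count was 12 without any 1 library.

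Each of the 8 genes was therefore also set against the summed CPM of these lists in the same library. Over the red pulp sum, Cd5l was 5.57 to 6.11% in TBK1-DKO and 5.55 to 5.62% in WT, and Mrc1 was 5.74 to 6.75% in TBK1-DKO and 6.55 to 6.76% in WT. For both the groups overlapped (exact permutation test, two-sided p = 0.3 and 0.8). Marco also overlapped, at 1.83 to 2.10% against 2.09 to 2.40% (exact permutation p = 0.2), as did Siglec1, at 1.23 to 1.70% against 1.12 to 1.23% (exact permutation p = 0.2). Cd209b stayed lower, at 0.0434 to 0.0535% against 0.103 to 0.117%, and Timd4 slightly lower, at 0.788 to 0.829% against 0.841 to 0.878%. Msr1 was higher, at 0.351 to 0.381% against 0.121 to 0.137%, and so was Stab1, at 0.125 to 0.152% against 0.069 to 0.0804%. These last 4 did not overlap (exact permutation p = 0.1 each, the smallest possible, and 0.2 after Benjamini-Hochberg adjustment over the 8 genes). The log2 differences of these ratios were 0.05 for Cd5l, -0.06 for Mrc1, -0.23 for Marco, 0.39 for Siglec1, -0.10 for Timd4, -1.23 for Cd209b, 1.54 for Msr1 and 0.89 for Stab1.

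Over the tissue macrophage sum the groups overlapped for Siglec1 alone of the 8 genes (log2 difference 0.07, exact permutation p = 0.8). Marco was lower by a log2 difference of -0.55, Cd209b by -1.55, Timd4 by -0.42, Mrc1 by -0.38 and Cd5l by -0.27, and Msr1 was higher by 1.22 and Stab1 by 0.57. Each of these had an exact permutation p of 0.1, the smallest possible, or 0.11 after Benjamini-Hochberg adjustment over the 8 genes. The 8 genes together were 16.1 to 17.6% of that sum in TBK1-DKO and 20.7 to 21.2% in WT (log2 difference -0.30). Their summed level, 1347 to 1449 CPM in WT, was mostly that of Mrc1 (553 CPM) and Cd5l (466 CPM), so it says little about the others. Lyz2, a lysozyme gene that neutrophils also express, named after its value was seen, was not called (1782 ± 124 against 1768 ± 14.1 CPM). It made up 31.9 to 33.2% of the tissue macrophage sum in TBK1-DKO and 25.4 to 27.8% in WT. Without Lyz2 in the sum, a setting chosen after seeing the data, the log2 difference was -0.18 for the 8 genes together (24.1 to 25.9% against 28.0 to 29.4%). For Cd5l it was then -0.15, for Mrc1 -0.26, for Timd4 -0.30, for Marco -0.43, for Cd209b -1.43, for Siglec1 0.19, for Stab1 0.69 and for Msr1 1.34, and again only Siglec1 overlapped between the groups.

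**Figure D3:**
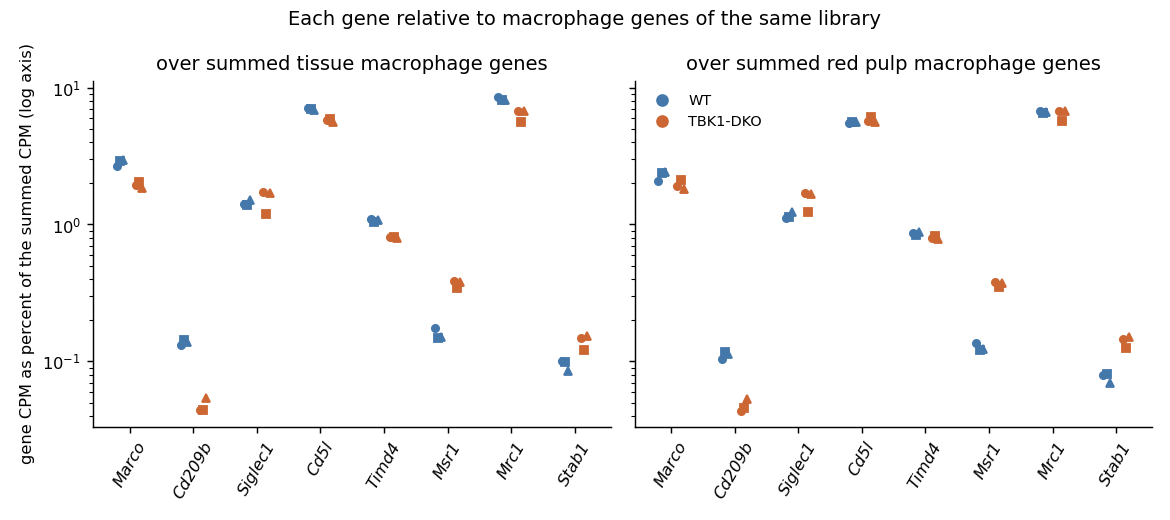
CPM of each gene as a percent (log axis) of the summed CPM of 15 tissue macrophage genes (left) and 13 red pulp macrophage genes (right) in each library; colours are groups and symbols are replicates as in the plot of CPM by library. Cd209b is lower and Msr1 and Stab1 are higher in TBK1-DKO in both panels, while Cd5l and Mrc1 overlap between groups in the right panel.

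Relatives of the 8 genes were counted from lists of gene families. Cd209b has neighbours in a cluster of SIGN lectin genes, of which 4 of 4 tested fell: Cd209a, a dendritic cell lectin, from 65.5 ± 8.56 to 43.1 ± 2.32 CPM (log2 fold change -0.61), Cd209c by 0.67, Cd209d by 0.95 and Cd209e by 1.01. Cd209f (36 reads in all) and Cd209g (3 reads) were too low to be tested. Their levels carry the same uncertainty as that of Cd209b. Of 7 other Siglec genes tested, 2 fell: Siglech, a marker of plasmacytoid dendritic cells, from 221 ± 15.5 to 135 ± 0.25 CPM, and Siglece, an inhibitory receptor, by 0.31. Cd22 (-0.04), Cd33 (0.18), Mag (-0.31), Siglec5 (0.07) and Siglecg (-0.11) were not called. Of 3 other TIM genes, Havcr1 fell by 0.37, a call lost without TBK1-DKO 1, and Havcr2 (-0.11) and Timd2 (0.34) were not called. Without TBK1-DKO 2, 4 of the Siglec genes fell and 1 rose. Cd209a and Siglech are also in the lists of type 2 and plasmacytoid dendritic cells.

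Other scavenger receptors were mixed. Of 16 tested, 5 fell, 3 rose and 8 were not called, with a median of 0.06. Cd163 fell, as given above, and Stab2, the partner of stabilin-1 on sinus endothelium, fell from 141 ± 12.6 to 96.5 ± 3.16 CPM (log2 fold change -0.54). Olr1, the receptor for oxidised low-density lipoprotein, rose from 2.02 ± 0.15 to 4.43 ± 1.01 CPM (log2 fold change 1.13), and Mrc2, a relative of Mrc1 that takes up collagen, by 0.56. The number that fell was 3 without TBK1-DKO 1, TBK1-DKO 3 or WT 3. Both directions, that of Msr1 and that of Mrc1, thus occurred among these genes.

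Genes on which marginal zone macrophages depend, or which act in their place, moved both ways: of 15 tested, 4 rose, 4 fell and 7 were not called. Rxra, the partner of LXR receptors, fell by 0.47, and Tnf and Relb, which take part in building the marginal zone, rose by 0.83 and 0.58. Nr1h3, the LXR gene that these macrophages need in mice, named after its value was seen, fell from 153 ± 11.8 to 120 ± 11 CPM (log2 fold change -0.35, SE 0.08; edgeR, adjusted p = 0.011). Of 12 LXR targets outside the 8 genes, 5 fell, 1 rose and 6 were not called (median -0.24). Lpl, lipoprotein lipase, fell from 161 ± 3.83 to 99.1 ± 2.18 CPM, Scd1 by 0.51 and Scd2 by 0.26, and Lpcat3, a phospholipid enzyme gene, rose by 0.34. Without TBK1-DKO 2, 8 of these targets fell, and without TBK1-DKO 2 and WT 1, 9 fell. Of 16 other genes for clearance of dying cells, 3 fell, 2 rose and 11 were not called, where 9.90% of all genes tested fell and 13.7% rose. Axl fell by 0.55, Itgb5 by 0.52 and Itgb3 by 0.40, and Mfge8, a bridging molecule, rose by 0.44. Without WT 2 the same number fell and neither rise was called, without TBK1-DKO 2 5 fell and 1 rose, and without TBK1-DKO 2 and WT 1 6 fell and 3 rose. Over all genes tested, 4352 were called without TBK1-DKO 2 and 6897 without TBK1-DKO 2 and WT 1, against 3402 with all libraries. Larger list counts in those fits thus went with more calls over all genes.

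Markers of other cells that could express these genes were counted in the same fit. Of 11 genes of endothelial and sinus lining cells tested, 3 rose, 2 fell (Stab2 and Pecam1) and 6 were not called. Madcam1 rose by 1.41, Plvap by 0.53 and Kdr, named after its value was seen, by 0.34. The sum of the list was 296 to 310 CPM in TBK1-DKO and 360 to 396 CPM in WT. It was mostly that of Stab2 (96.5 against 141 CPM) and Pecam1 (154 against 191 CPM), so it says little about the others. Lyve1, a marker of such cells, was at 0.34 ± 0.03 against 0.45 ± 0.16 CPM, and Clec4g at 1.47 ± 0.55 against 2.0 ± 0.15 CPM. Of 11 monocyte genes, 5 fell and 3 rose: Cd300e fell by 0.67 and Vcan by 1.85, and Chi3l3 and F13a1 rose by 0.99 and 0.67. The sum of the monocyte genes was 2693 to 2756 CPM in TBK1-DKO against 3129 to 3158 CPM in WT. Its largest part was Csf1r, at 1122 ± 17.4 against 1623 ± 74.0 CPM, which is also in the tissue macrophage list. The sum therefore says little about the other monocyte genes. Of 9 marginal zone B cell genes, 2 rose and 1 (Cr2) fell, while 1 was called without WT 1 and 5 without TBK1-DKO 2; their sum was 1496 to 1626 CPM against 1561 to 1589 CPM. Emcn, an endothelial gene with 8 reads in all, was at 0 in TBK1-DKO 1, WT 2 and WT 3, and no other gene of these 3 lists was at 0 in any library. Their part in the changes of the 8 genes was not tested.

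**Figure D4:**
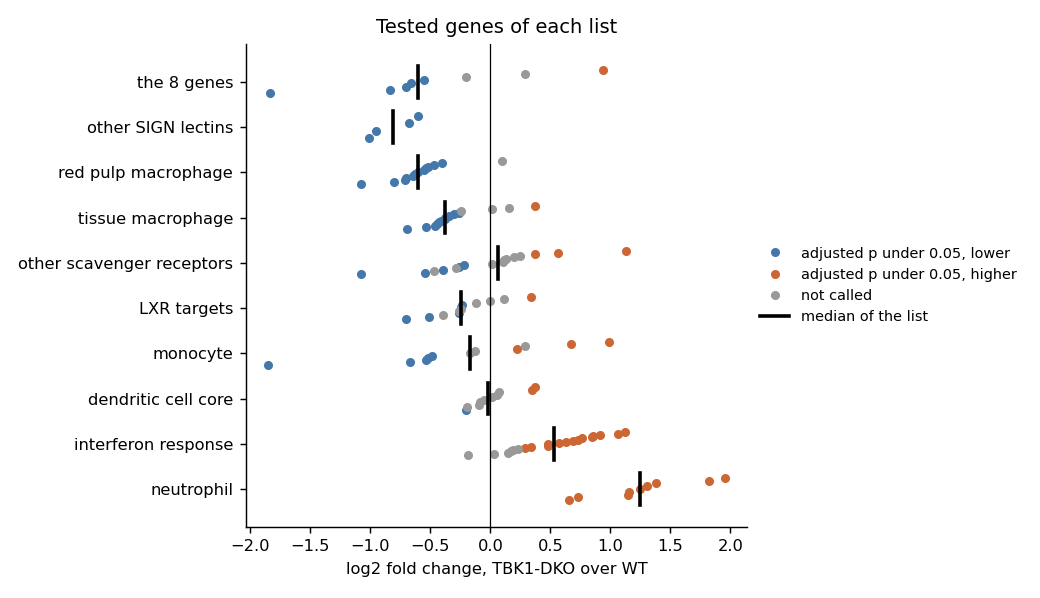
Log2 fold change (TBK1-DKO over WT, horizontal axis) of each tested gene of 10 lists, with colour for edgeR's call and a bar at the list's median. The 8 genes and the red pulp macrophage list have medians of -0.61 and -0.60, the dendritic cell core list -0.02, the interferon response list 0.53 and the neutrophil list 1.24.

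Type I interferon raises Siglec1 in myeloid cells, and of 20 interferon-stimulated genes 14 rose and 6 were not called by edgeR, with a median of 0.53. Oas3, Oas2, Rsad2 and Oasl2 rose by 1.13, 1.06, 0.91 and 0.85, and Siglec1 was not called (-0.21). A relation of Siglec1 to interferon in these cells was not tested. Without TBK1-DKO 2 and WT 1, 18 of the 20 interferon-stimulated genes rose and 1 fell, in a fit that called 6897 of 14456 genes tested. Among other cells of the spleen, neutrophil genes rose (9 of 9; sum of 5786 to 6662 against 2418 to 2694 CPM) and erythroid genes rose (7 of 7 tested; 2878 to 3072 against 1542 to 1696 CPM). The globin genes Hbb-b1 and Hba-a2 had 0 reads, while Slc4a1, another erythroid gene, was at 1589 ± 76.2 against 861 ± 41.6 CPM. Reads that align to several places enter no gene count, so counts of 0 do not show that globin RNA was absent. Genes of type 1 dendritic cells (6 of 8), plasmacytoid dendritic cells (7 of 8), B cells (4 of 9), T cells (5 of 8) and NK cells (7 of 8 tested) fell. Of 9 genes of type 2 dendritic cells 2 rose and 1 fell, against 6 called without TBK1-DKO 2, and the B cell count was 7 without it. Shares of reads are relative within a library, and the rise of neutrophil and erythroid genes moved with the fall of the macrophage genes; its part in that fall was not tested.

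Genes whose profile over the 6 libraries was most like those of Marco, Timd4 and Siglec1 were ranked among 12661 genes by Euclidean distance of centred log2 CPM. Nearest to Marco were 2010300C02Rik (0.16), Fcna (0.16), which encodes ficolin A, a secreted lectin of the complement system, Sfn (0.18), Cyp2d22 (0.18) and Trf (0.18), the transferrin gene. Fcna fell from 530 ± 19.9 to 304 ± 36.3 CPM. Nearest to Timd4 were Ctsl (0.097), a lysosomal cathepsin gene, Lpl (0.10), Mpzl1 (0.11), 2010300C02Rik (0.11) and Cd300e (0.12). Nearest to Siglec1 were Lphn3 (0.056), 2410066E13Rik (0.056), Plxna1 (0.058), Gm9958 (0.068) and Plxna2 (0.097), none of which was called by edgeR (adjusted p = 0.14 to 0.38). Such distances describe the 6 libraries and carry no test.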

How the data were processed

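RNA of splenic dendritic cells was sequenced in 3 TBK1-DKO and 3 WT libraries. Each deposited file holds counts of reads as whole numbers for 23420 gene symbols, unscaled, with 1 file a library. TopHat, TopHat2, HTSeq and DESeq2 and the mm10 build are named in the submitters' processing notes; versions, annotation and strand setting were not given in the sources used here. Rows that name no gene (8.20 to 10.7% of records) were left out. Reads that align to several places, as in gene families, are in those rows.

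The 8 genes and all lists were chosen with earlier results of these data known. The fit was made with edgeR 4.0.16 (R 4.3.3): filterByExpr (minimum count 10; 14388 genes kept), TMM factors (0.996 to 1.01), robust dispersions and the quasi-likelihood F test of TBK1-DKO against WT, with Benjamini-Hochberg adjustment over all genes tested and a threshold of 0.05. SE were derived from the F statistic. Levels are CPM with TMM-scaled library sizes, as mean ± SD (n = 3); RPKM used merged exons of GENCODE M21 (GRCm38, the assembly of mm10). Ratios were compared by exact permutation tests over libraries (scipy 1.17.1). The fit was tested on simulated counts.

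Text names the 8 genes; up to 4 called genes of smallest p per list, or all tested genes of lists of 8 or fewer; Tbk1; and the 5 genes nearest in profile to Marco, Siglec1 and Timd4 (mean of at least 1 CPM). Genes outside that rule are marked, except for means, counts and genes at or near 0 given to describe a list. Alternatives were DESeq2 1.42.0, limma-voom (limma 3.58.1), RLE and upper-quartile factors, other filters, the replicate number as a block, no robust option, libraries left out, length and GC offsets (mgcv 1.9.3), thinning of TBK1-DKO reads to WT depth, removal of 10 haemoglobin and immunoglobulin genes, and other denominators of the ratio.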

Additional observations from a re-analysis of the deposited data

Results flagged for a closer look

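Records that aligned to several places, which enter no gene count, made up 6.65 ± 0.29% of all records in TBK1-DKO (SD, n = 3; 6.53, 6.99 and 6.44% in libraries 1, 2 and 3) and 5.63 ± 0.17% in WT (5.43, 5.74 and 5.72%). They drew attention because every TBK1-DKO library was above every WT library in data outside the gene counts.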

How the results depend on the processing

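The 6 calls among the 8 genes (Marco, Cd209b, Cd5l, Timd4 and Mrc1 lower, Msr1 higher) kept their direction and stayed called under each of 18 alternatives. The removal of haemoglobin and immunoglobulin genes left 14386 of 14388 tested genes, so it could hardly alter these calls. Log2 fold changes over these ranged from -1.01 to -0.77 for Marco, -1.95 to -1.78 for Cd209b, -0.65 to -0.50 for Cd5l, -0.77 to -0.67 for Timd4, -0.70 to -0.63 for Mrc1 and 0.89 to 0.98 for Msr1. With each library left out in turn, Stab1 ranged from 0.22 to 0.33, called only without TBK1-DKO 2, and Siglec1 from -0.29 to -0.11, never called. Without both TBK1-DKO 2 and WT 1, Siglec1 (-0.14) and Stab1 (0.34) were called, and the number of genes called was 6897 (3500 up, 3397 down) in place of 3402 (1978 up, 1424 down). Siglec1 was also called with length and GC offsets (-0.27). The cause was not tested. Over the other alternatives the genes called numbered 2308 to 5049. The summed 8 genes over tissue macrophage genes had a log2 difference of -0.30, which was 0.014 with red pulp macrophage genes as the denominator, -0.18 with Lyz2 left out of the tissue macrophage genes (chosen after seeing the data) and -0.52 with dendritic cell core genes. Mrc1 and Cd5l made up most of the summed level of the 8 genes. With the replicate block 4086 genes and the same number of the 8 genes, 6, were called. Same-numbered libraries deviated with correlations of 0.36, 0.31 and -0.16 for numbers 1, 2 and 3, so the numbers were not taken as pairs. The lowest depths were 113 to 354 reads a library for Cd209b and 197 to 382 for Stab1.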
